A study of Mus musculus with 4 samples.

Results

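Potassium channel genes were examined in polyA RNA from 4 untreated mouse tumours. They were taken by name, as every gene of the count table whose mouse symbol is Kcn followed by letters, a number and at most 1 further letter. The rule found 93 of 46946 genes, which fall into 14 classes by symbol. Of these, 72 had a mean of 1 CPM or more (counts scaled to a fixed library total, with TMM factors), 21 stayed below it, and 3 of the 21, Kcna10, Kcnj1 and Kcnk18, had 0 counts in every library. A count of 0 allows up to 0.122 to 0.134 CPM here, from counting error alone.

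Potassium channels let potassium leave or enter a cell and set how far its membrane is from firing. Voltage-gated channels (Kv) end action potentials and pace their repeats, inward rectifiers (Kir) hold the resting potential and let glia take up potassium released by neurons, two-pore channels (K2P) carry a steady leak, and calcium- or sodium-activated channels couple ion entry to repolarisation. Pore-forming subunits work with auxiliary proteins that change their gating or their place on the membrane. In brain, oligodendrocyte precursors and astrocytes express Kir4.1 and A-type Kv channels, while neurons add fast Kv3, Kv7 and GIRK channels.

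All 4 tumours form 1 group, PDGFB K27M, which the sample labels describe as tumours from neural stem cells with PDGF and with the genotype K27M, a change of histone H3. The text for the whole series instead speaks of injected DIPG cells with mutant histone H3.3, and the difference is not settled by the files used here. Normal brain and tumours without the mutation were not analysed here, so no comparison between groups was made. The sources used here do not give host strain, age, injection site or whether the stem cells were 1 clone. The labels call them separate tumours and no more, and the p-values below measure only the spread between these 4 samples. The libraries held 21664889 to 24369339 counts. Their column names are T14, T10, T8 and TUN, and 4 values in a row always stand in that order.

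Marker genes of other brain cells differed between the libraries, and every difference between tumours given below stands beside this. The summed level of 19 neuron genes was 4939, 4276, 642 and 424 CPM. Of these, 18 were at least 2-fold higher in both T14 and T10 than in both T8 and TUN, and none was at 0 in all 4. Astrocyte genes summed to 8933, 5923, 2739 and 2634 CPM and mature oligodendrocyte genes to 4142, 5493, 1343 and 1313 CPM, with 9 of 12 and 7 of 10 in the same pattern. Purkinje cell genes stood at 4801, 819, 431 and 315 CPM and granule cell genes at 2418, 452, 57.2 and 51 CPM, which sets T14 apart from T10 as well. Choroid plexus genes peaked in T10, with 51, 638, 44.5 and 7.77 CPM. Oligodendrocyte precursor genes, 7 of 10 of them level, summed to 9725, 11393, 15376 and 12656 CPM. Mitosis genes summed to 824, 834, 1488 and 1964 CPM, with 2 of 10 opposite to the neuron genes in all 4 pairs, 8 mixed and 0 of 10 called by the test described below. Of 6 T cell genes none reached a mean of 1 CPM. The part of such cells in the channel values was not tested, and bulk RNA cannot tell fewer cells of a type from less RNA per cell.

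Compared per length of exon (RPKM), the channel transcripts were dominated by a small number of genes. Kcnip3, which encodes the Kv4 partner KChIP3 (also known as calsenilin or DREAM), led with 166 ± 13.1 RPKM (SD, n = 4). It was followed by Kcnj10 (Kir4.1) at 114 ± 33.7 RPKM and Kcnd2 (Kv4.2) at 50.4 ± 6.75 RPKM. These 3 genes made up 37.2%, 39.7%, 52.2% and 54.4% of the summed RPKM of all 93. Kcnj16 (Kir5.1), Kcnd3 (Kv4.3) and Kcnk2 (TREK-1) stood at 29 ± 4.38, 28.5 ± 6.01 and 28.4 ± 5.83 RPKM, and the means of these 3 genes differed by less than the spread between tumours. The median over the 72 genes was 2.97 RPKM, against 7.48 over all 14320 genes at the same CPM limit.

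**Figure D1:**
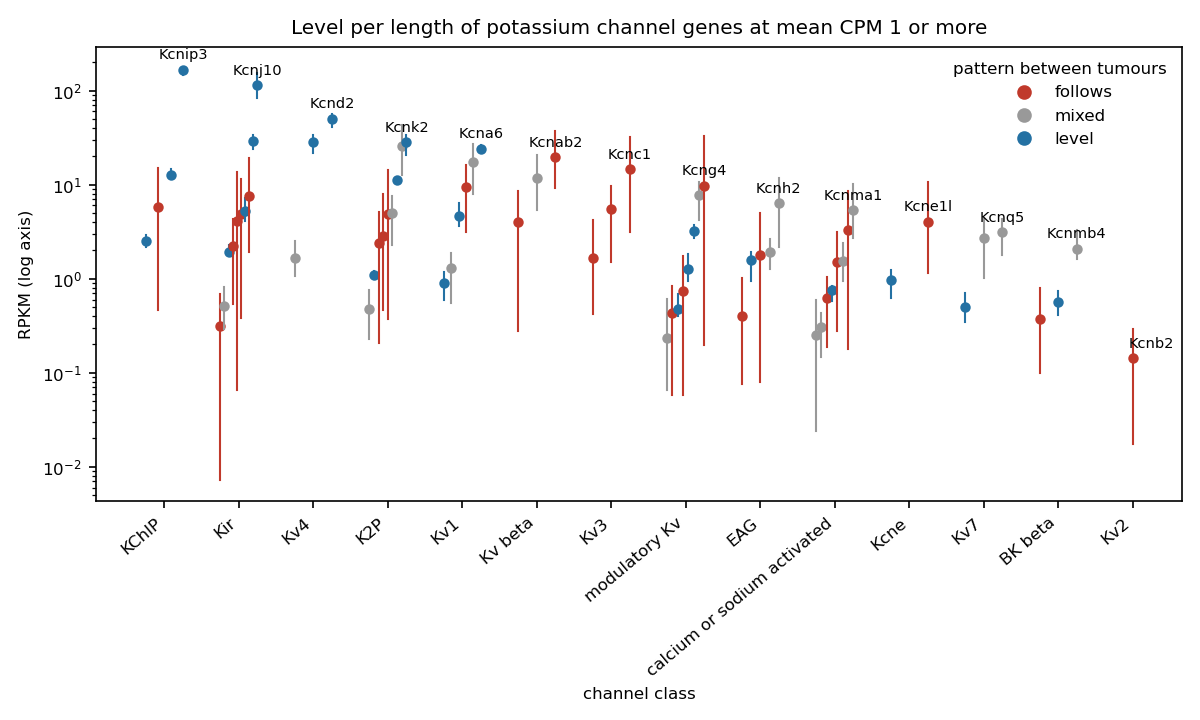
RPKM on a log axis for 68 of the 72 potassium channel genes at mean CPM 1 or more, by channel class. Points are means of 4 tumours, vertical lines run from the lowest to the highest tumour, the top gene shown of each class is named and colours give the pattern between tumours. Kcnip3, Kcnj10 and Kcnd2 stand highest with short lines, while Kcnc1 and Kcng4 span wide ranges.

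To describe whether a channel gene ran with neuron genes, log2 CPM values (prior count 2) were compared in each of the 4 pairs of libraries whose neuron genes differed by 1 log2 unit or more, namely T14 or T10 against T8 or TUN. A gene followed the neuron genes where it differed the same way by at least 1 log2 unit in all 4 pairs. It was level where its 4 values spanned less than 1 log2 unit, opposite where it ran the other way in all 4 pairs, and mixed otherwise. Of the 72 genes, 28 followed (38.9%, against 9.02% of all genes at mean CPM 1 or more), 24 were level (33.3%, against 69.7%), 20 were mixed (27.8%, against 20.3%) and 0 were opposite (against 0.985%). The median of log2 CPM minus its 4-tumour mean was 0.415, 0.675, -0.407 and -0.594 for the 72. For all genes at the same limit it was 0.0159, 0.00277, -0.0193 and -0.000131. The median span of the 72 was 1.76 log2 units, against 0.66 for all genes. Kcns3 and Kcnab2 lay just inside the limit, with smallest gaps of 1.08 and 1.20 log2 units, and Kcna2, Kcnn1 and Kcnab3 just outside at 0.94, 0.89 and 0.82. Astrocyte and mature oligodendrocyte genes divide the libraries in the same way, so a gene that follows neuron genes by this rule follows theirs too. With a limit of 2 log2 units, 17 genes followed, against 3.81% of all genes.

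**Figure D2:**
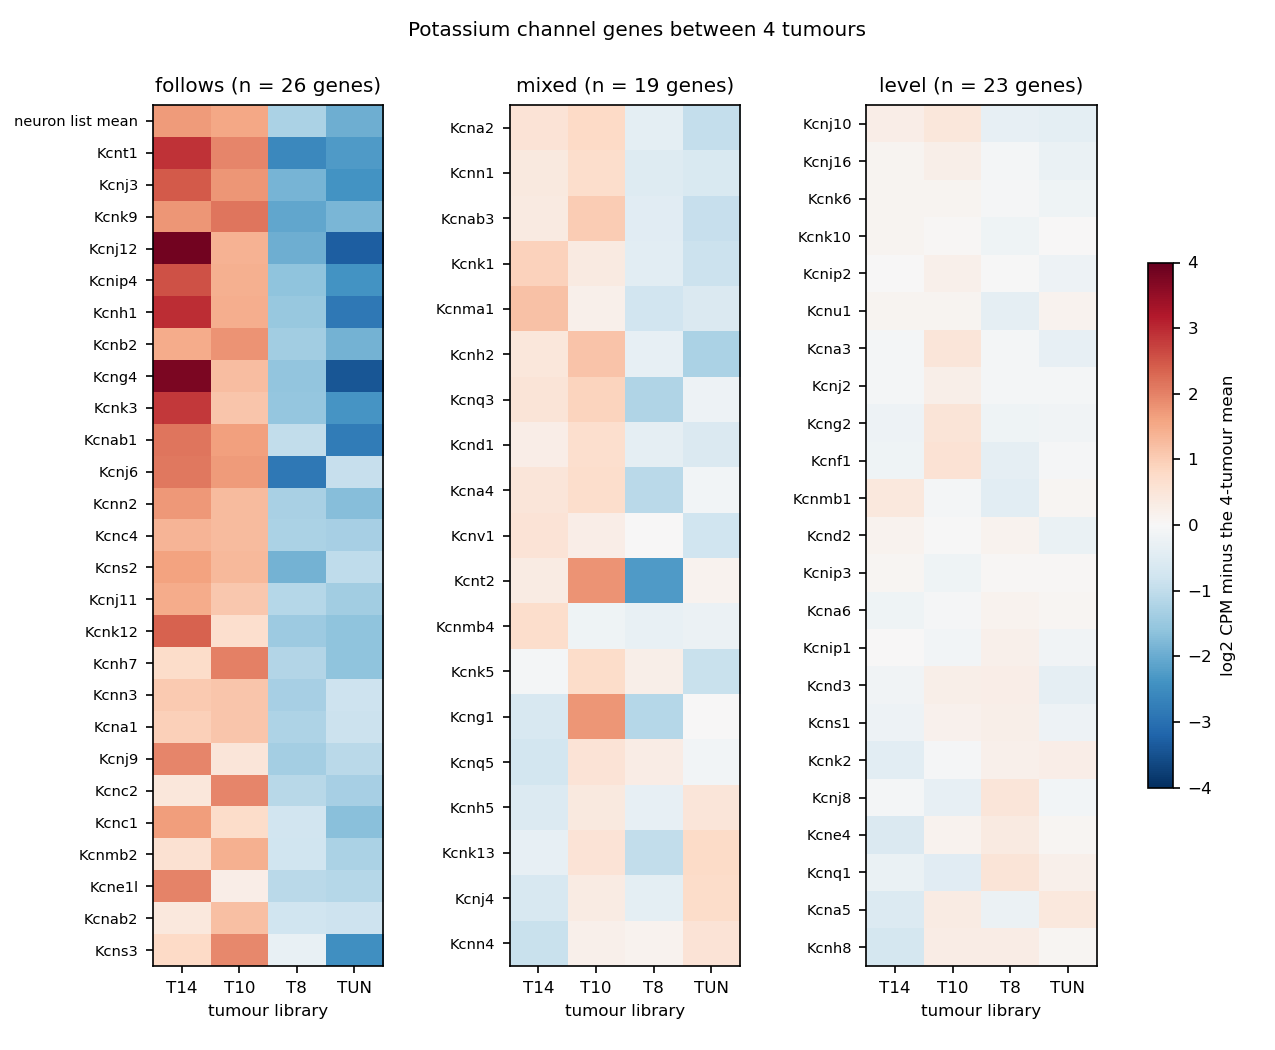
Log2 CPM minus its 4-tumour mean for 68 of the 72 genes at mean CPM 1 or more, in 3 panels by pattern, with the mean of 19 neuron genes in the top left row. Rows are sorted by the gap between the lower of T14 and T10 and the higher of T8 and TUN. The 26 following genes shown are red in T14 and T10 and blue in T8 and TUN, and the 23 level genes shown stay pale.

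The edgeR goodness of fit asks whether a gene varies between the 4 tumours more than genes of like abundance. It called 18 of the 63 potassium channel genes tested (28.6%), against 4.34% of all 14266 genes tested. All 18 followed the neuron genes, as did 83.7% of the called genes over the whole table. Highest in T14 were 14 of them and in T10 the other 4, and by the rule a following gene is always highest in T14 or T10. The low-count filter removed 9 of the 72 genes because of low values in at least 1 library, 7 of which followed, so they were not tested however high they were elsewhere. Without T14 the count was 15 of 64 (against 2.99% of all genes tested), with Kcne1l, Kcnj9, Kcnk12 and Kcnn2 lost and Kcnab2 gained. Without T10 it was 13 of 63 (against 3.22%), with Kcna1, Kcnc2, Kcnc4 and Kcnh7 among those lost. Without T8 it was 15 of 67 (against 3.12%), with Kcna1, Kcnc4 and Kcne1l lost. Without TUN it was 11 of 66 (against 2.95%). Then Kcna1, Kcnc1, Kcnc2, Kcnc4, Kcne1l, Kcnh7 and Kcnn2 were among those no longer called while Kcnj12 was. Among the calls kept without each library in turn were those of Kcnab1, Kcng4, Kcnh1, Kcnip4, Kcnj3, Kcnk3 and Kcnt1. As dispersion outliers in DESeq2, only Kcng4, Kcnh1, Kcnj3, Kcnk3 and Kcnt1 were called, 5 of 63 against 0.652% of all genes.

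Among the pore-forming Kv classes, the Kv3 genes Kcnc1, Kcnc2 and Kcnc4 followed the neuron genes and were called, while of the 3 Kv4 genes none followed. Kv3 channels open and close fast and allow neurons to fire at high rates. Kcnc1 (Kv3.1) stood at 293, 154, 53.9 and 28.9 CPM (adjusted p = 0.000161). It was highest in T14. Kcnc4 (Kv3.4) had nearly the same value in T14 and T10, at 35.8 and 33.5 CPM, against 5.7 in T8 and 5.49 in TUN (adjusted p = 0.00911). Kcnc2 (Kv3.2) was instead highest in T10, with 9.28, 26.4, 3.06 and 2.63 CPM (adjusted p = 0.0177), a call that was lost with no low-count filter (adjusted p = 0.0667).

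Kv4 channels carry the A-type current, which opens below the firing threshold and inactivates quickly. Kcnd2 was level at 285, 253, 287 and 213 CPM, and Kcnd3 at 241, 317, 326 and 208 CPM (both adjusted p = 1). No order of the libraries like that of the neuron genes was seen in either gene. Kcnd1, the third Kv4 gene, was mixed at a low level (1.67 ± 0.666 RPKM).

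Kv1 genes, which encode channels of axons and nerve terminals, were divided. Kcna6 (Kv1.6) was level at 128, 139.7, 156 and 151 CPM. Kcna1 (Kv1.1), which lies 61.9 kb away on chromosome 6, followed the neuron genes at 69.3, 77.3, 15.1 and 19.8 CPM (adjusted p = 0.025). Kcna2 (Kv1.2) was between the patterns with 266, 319, 139 and 95.6 CPM (adjusted p = 0.408), its lower value of T14 and T10 standing 0.94 log2 units above the higher of T8 and TUN. The ratio of Kcna6 to Kcna1 in RPKM was 1.48, 1.45, 8.34 and 6.12. Kcna3 and Kcna5 were level, and Kcna4 was mixed. Kcnb2, a Kv2 gene of the slow delayed rectifier of cell bodies, followed at 80, 110, 10 and 6 counts and was not tested.

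Among the modulatory Kv genes, whose products form no channel alone but join Kv2 subunits, Kcng4 (Kv6.4, chromosome 8, 119623854 to 119635680) showed the widest range of the 72 genes, 7.20 log2 units. It stood at 124, 21.2, 2.97 and 0.759 CPM (adjusted p = 2.87e-16), and the value in TUN rests on 17 counts. Kcnv1 (Kv8.1), the next in RPKM, was mixed at 47.8, 39.6, 32.8 and 18.7 CPM, a 2.56-fold range. Kcns2 and Kcns3 followed at means of 1.86 and 2.26 CPM, and Kcns1, Kcnf1 and Kcng2 were level. Kcng3 and Kcnv2 stayed under a mean of 0.1 CPM.

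Kv7 (Kcnq) channels carry the M-current that restrains repeated firing. Kcnq3 had its lowest value in T8 rather than TUN, at 47.4, 62.1, 14.4 and 29 CPM, and was not called (adjusted p = 0.427). Kcnq5 was lowest in T14, at 13.8 CPM against 33.3, 28.1 and 21.1 in T10, T8 and TUN. The epithelial and heart gene Kcnq1 was level at a mean of 2.05 CPM, with 191 counts in all. Its exons overlap the antisense RNA Kcnq1ot1 (289 counts), and without strand their reads cannot be separated. In the EAG class (Kcnh), 2 of 5 genes at mean CPM 1 or more followed (against 9.02% of all genes). Kcnh1 (EAG1) ranged from 36.9 CPM in T14 through 13 in T10 and 1.59 in T8 to 0.58 in TUN (adjusted p = 2.66e-07). Kcnh7 (ERG3) was highest in T10, at 6.17, 15.3, 1.59 and 1.16 CPM (adjusted p = 0.0177). This call was lost with the filter at mean CPM 1 (adjusted p = 0.0819) and with no filter (adjusted p = 0.11), and exons of Kcnh7 overlap those of Gca, which had 724 counts in all against 579 for Kcnh7. Kcnh2 (ERG1, the hERG channel in humans) had the highest RPKM of the class, 6.36 ± 4.16, and was mixed at 35.3, 56.9, 20.5 and 10.5 CPM. Kcnh5 (EAG2) was high in T10 and TUN, at 5.1, 9.81, 5.99 and 10.6 CPM (adjusted p = 1).

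Of the 8 calcium- or sodium-activated channel genes, 3 followed, 4 were mixed and 1 was level. Over all genes at mean CPM 1 or more the shares were 9.02%, 20.3% and 69.7%. Kcnt1, which encodes the sodium-activated channel Slack, had the widest gap of all 72 genes between the lower of T14 and T10 and the higher of T8 and TUN, 4.23 log2 units. It stood at 80.8, 41.6, 1.72 and 2.14 CPM (adjusted p = 7.32e-12). Kcnn2 (SK2), a small-conductance calcium-activated channel, stood at 22.8, 16.3, 2.68 and 2.01 CPM (adjusted p = 0.00689). The BK channel gene Kcnma1 had a smaller range of 66.8, 34.4, 17.4 and 19.8 CPM and was mixed (adjusted p = 0.356). Kcnn3 (SK3) followed at 10.5, 11, 1.97 and 2.81 CPM without passing the test (adjusted p = 0.38), and Kcnn1 (SK1) was mixed at 7.68, 9.65, 4.11 and 3.84 CPM. Kcnt2, which encodes the sodium-activated channel Slick, was mixed at 32, 100, 4 and 28 counts, so T10 and T8 stood at its ends. Kcnu1, a channel known from sperm, was level at a mean of 2.80 CPM. Kcnn4, the intermediate-conductance channel known from immune cells and gliomas, was low everywhere at 0.755, 1.71, 1.63 and 2.19 CPM.

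The Kir class held a pair of neighbouring genes with different patterns. Kcnj9 (GIRK3, a G-protein-gated channel of neurons, chromosome 1, 172320501 to 172329318) and Kcnj10 (Kir4.1, 172341210 to 172374085) lie 11.9 kb apart on opposite strands. Kcnj10 was level at 712, 822, 469 and 454 CPM (adjusted p = 1), although both of its higher values were again those of T14 and T10. Kcnj9 stood at 81.8, 29.9, 8.17 and 9.87 CPM (adjusted p = 0.000333) and followed. The RPKM ratio of Kcnj10 to Kcnj9 was 6.91, 21.8, 45.5 and 36.5. Kcnj16, whose product pairs with Kir4.1 in glia, was level at 121, 134, 107 and 94.6 CPM. The GIRK gene Kcnj3 (GIRK1) followed at 60.1, 36.9, 2.93 and 2.01 CPM (adjusted p = 1.93e-08). Kcnj12 (Kir2.2) ranged further, with 845, 167, 14 and 4 counts, and was not tested because of its low counts in TUN. Kcnj2 (Kir2.1), by contrast, was level at 222, 302, 237 and 224 counts, and the vascular KATP subunit gene Kcnj8 at 278, 254, 438 and 269 counts. Kcnj6 (GIRK2) followed on 89, 72, 1 and 9 counts, and the other KATP pore gene, Kcnj11, on 115, 95, 18 and 14 counts.

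The 250 bases before the start of Kcnj9, Kcnj10 and Kcng4 are shown because the first pair are neighbours with different patterns and the last has the widest range between tumours. They come from RefSeq on GRCm38.p6, read 5′ to 3′ on the strand of the gene, with each CG dinucleotide in capitals, the dinucleotide that carries DNA methylation and is dense in CpG islands.
Kcnj9 (chr1:172329323-172329572, minus strand): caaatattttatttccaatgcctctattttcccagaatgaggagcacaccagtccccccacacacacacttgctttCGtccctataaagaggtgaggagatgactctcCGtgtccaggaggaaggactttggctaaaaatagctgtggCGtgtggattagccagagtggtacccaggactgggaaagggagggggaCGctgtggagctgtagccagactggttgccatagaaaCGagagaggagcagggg
Kcnj10 (chr1:172340960-172341209, plus strand): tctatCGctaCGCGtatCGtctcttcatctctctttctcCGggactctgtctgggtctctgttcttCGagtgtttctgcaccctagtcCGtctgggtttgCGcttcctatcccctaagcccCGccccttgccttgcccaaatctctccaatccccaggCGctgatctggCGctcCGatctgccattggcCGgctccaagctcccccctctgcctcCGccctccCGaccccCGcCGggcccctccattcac
Kcng4 (chr8:119635681-119635930, minus strand): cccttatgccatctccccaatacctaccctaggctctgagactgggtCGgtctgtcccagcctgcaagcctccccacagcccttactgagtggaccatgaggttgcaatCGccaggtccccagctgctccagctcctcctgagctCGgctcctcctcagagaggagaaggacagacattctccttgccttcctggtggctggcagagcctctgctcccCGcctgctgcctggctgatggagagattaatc
The Kcnj10 stretch holds 17 CG dinucleotides, that of Kcnj9 5 and that of Kcng4 4. RefSeq had an entry for 68 of the 93 genes, and where a gene had several starts the most upstream was used. For 56 of the 68, among them the 3 shown, the bases after the start were found near the start of a transcript of the gene. The others were kept in the medians and shares below, although their start was not matched. The median number of CG in these 250 bases was 8 for the 68 genes and 6 for all 27025 genes with an entry, 91.7% of which hold at least 1. It was 8.5 for the 18 following genes with an entry and 7 for the 19 level ones, with quartiles of 6 and 16 against 4 and 17. It was 14 for the 14 mixed genes and 5 for the 17 genes under a mean of 1 CPM. The TATA sequence TATAAA, sought on both strands, was in the Kcnj9 stretch and in 2.94% of the 68, against 13% of all. CAGCACC and GGACAGC, which are words from the left and right parts of the RE1 element of neuronal genes, were sought on both strands. They were found in 5 and 9 of the 68 genes (7.35% and 13.2%), against 5.7% and 5.28% of all, and each in 1 of the 18 following genes (5.56%). GGACAGC was in 15.8% of the level, 14.3% of the mixed and 17.6% of the low genes, and CAGCACC in 0%, 14.3% and 11.8%.

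K2P genes were also divided. Kcnk2 (TREK-1), a leak channel opened by stretch and lipids, was level and had the highest mean RPKM of the class, with its lowest CPM in T14, at 103, 133, 159 and 167 CPM. Kcnk10 (TREK-2) was level at 30.9, 29.6, 25.5 and 28.8 CPM. Kcnk3 (TASK-1), an acid-sensitive leak channel, followed at 56.7, 17.1, 2.68 and 1.47 CPM (adjusted p = 1.12e-07), and Kcnk12 (THIK-2) at 15.2, 4.68, 1.01 and 0.893 CPM (adjusted p = 0.00317). Exons of Kcnk3 overlap those of Gm9899, which had 444 counts in all against 1796 for Kcnk3. Kcnk9 (TASK-3), a close relative of TASK-1, followed on 106, 152, 6 and 7 counts and was not tested. Kcnk6 was level at a mean of 4.53 CPM and Kcnk5 mixed at 1.62 CPM. Kcnk1 (TWIK-1), known from astrocytes, was mixed at 99.8, 68.4, 39.2 and 29.3 CPM. Kcnk13 (THIK-1), known as a microglial channel, had its own order, high in T10 and TUN, with 11, 20.6, 7.08 and 23.6 CPM, while microglia genes summed to 785, 619, 728 and 859 CPM.

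**Figure D3:**
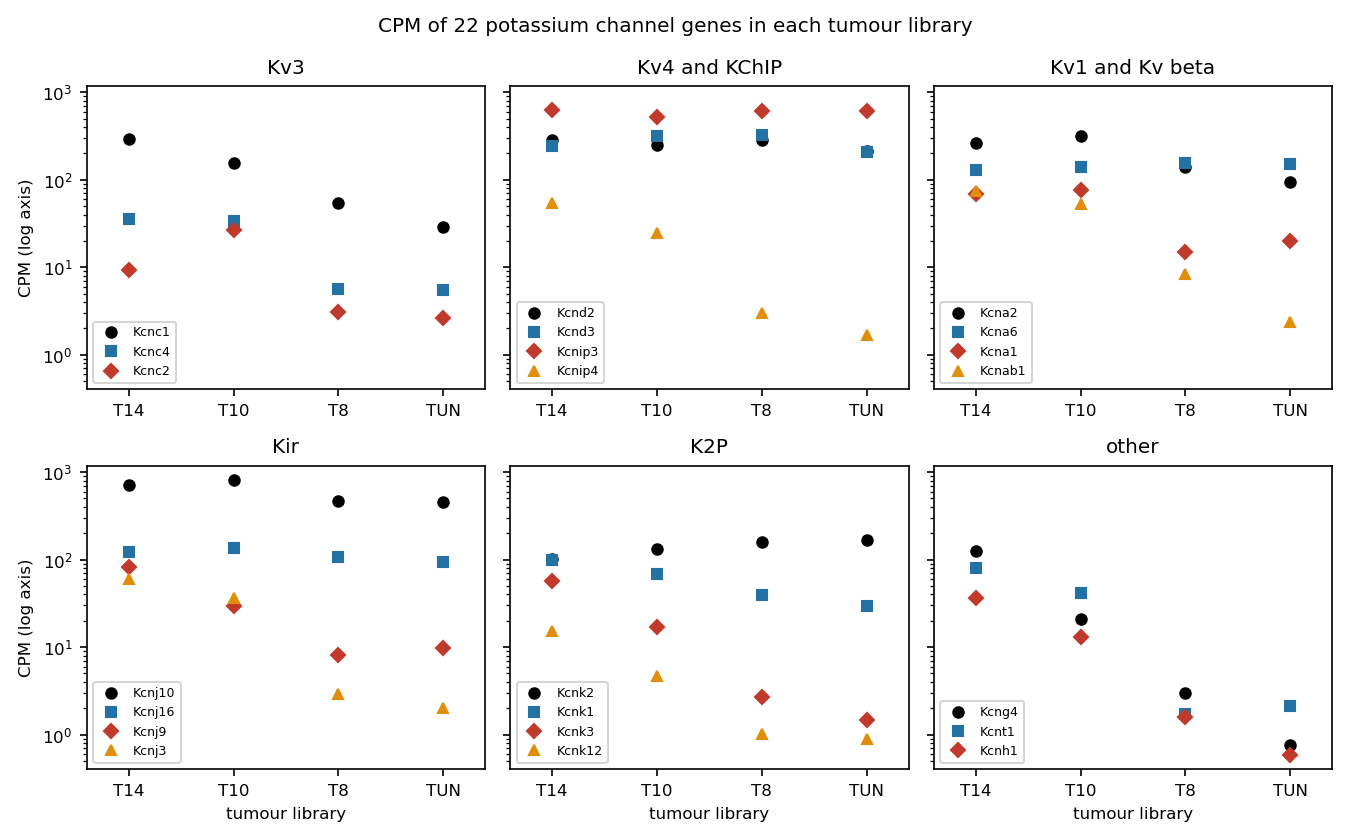
CPM on a log axis of 22 potassium channel genes in each of the 4 tumour libraries, in 6 panels by class. Each symbol is 1 gene in 1 library. Kcnd2, Kcnd3, Kcnip3, Kcna6, Kcnj10, Kcnj16 and Kcnk2 stay at like levels, while Kcnc1, Kcnc2, Kcnc4, Kcnip4, Kcnab1, Kcnj3, Kcnk3, Kcng4, Kcnt1 and Kcnh1 are lower in T8 and TUN.

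Genes of auxiliary subunits were divided as well. Of the 4 KChIP genes, whose calcium-binding products attach to Kv4, Kcnip3 stood at 622, 520.5, 607 and 608 CPM, a range of 1.2-fold. Kcnip1 was level too, at 78.9, 72.5, 90.2 and 71.4 CPM, as was Kcnip2. Kcnip4 alone of the 4 followed, at 54.5, 24.6, 2.97 and 1.7 CPM (adjusted p = 2.66e-07), and its exons overlap other genes with up to 866 counts in all against 1942 of its own. Of the Kv beta genes, which join Kv1, Kcnab1 followed at 74.3, 52.8, 8.42 and 2.37 CPM (adjusted p = 1.26e-07). Kcnab2 followed with 122, 209.6, 52.9 and 51 CPM, without passing the test (adjusted p = 0.067), and Kcnab3 was mixed at 37.4, 59.6, 21.2 and 15.6 CPM. Kcne1l, a Kcne gene on the X chromosome, stood at 16.4, 4.89, 1.89 and 1.79 CPM (adjusted p = 0.0474), a call that was lost with both other scalings and both other filters (adjusted p = 0.052 to 0.213) and without T14, T8 or TUN. Kcne4 was level at a mean of 2.58 CPM. Of the BK beta genes Kcnmb4 was 10.9 CPM in T14 and 5.9, 5.41 and 5.58 in the others, and Kcnmb1 was level at a mean of 2.37 CPM. Kcnmb2 followed on 31, 61, 11 and 7 counts and was not tested. Kcne2 and Kcnj13, both known from the choroid plexus, had 60 and 32 counts in T10, where choroid plexus genes peaked, against at most 7 and 14 elsewhere, and Kcnj13 overlaps exons of Gigyf2.

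The following genes differed among themselves in how T14 compared with T10. In this pair the neuron gene means stood 1.71 and 1.53 log2 units above the mean of the 4. Neuron genes also differed between T14 and T10 in both directions, with Gad1 at 408 and 143 CPM and Slc17a6 at 26.1 and 90.4 CPM. T14 was at least 1 log2 unit above T10 in 8 of the 28 (28.6%, against 21.5% of all genes that follow), namely Kcng4, Kcnj12, Kcne1l, Kcnk3, Kcnk12, Kcnh1, Kcnj9 and Kcnip4. T10 was at least 1 unit above T14 in 3 of the 28 (10.7%, against 5.34%), Kcnc2, Kcnh7 and Kcns3. By root mean square difference over the 4 centred log2 CPM values, the nearest of 8 marker list means was that of neurons for 11 genes, granule cells for 3 (Kcng4, Kcnj12 and Kcnt1) and Purkinje cells for 2 (Kcnh1 and Kcnk3). It was mature oligodendrocytes for 6, among them Kcna1 and Kcnab2, astrocytes for 4 and choroid plexus for 2. The difference from the granule cell list mean was 0.0544 log2 units for Kcnj12, 0.242 for Kcng4 and 0.808 for Kcnt1. Kcnt1 lay 0.924 log2 units from the neuron list mean. With 4 libraries this nearness is a description and names no source of the RNA.

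**Figure D4:**
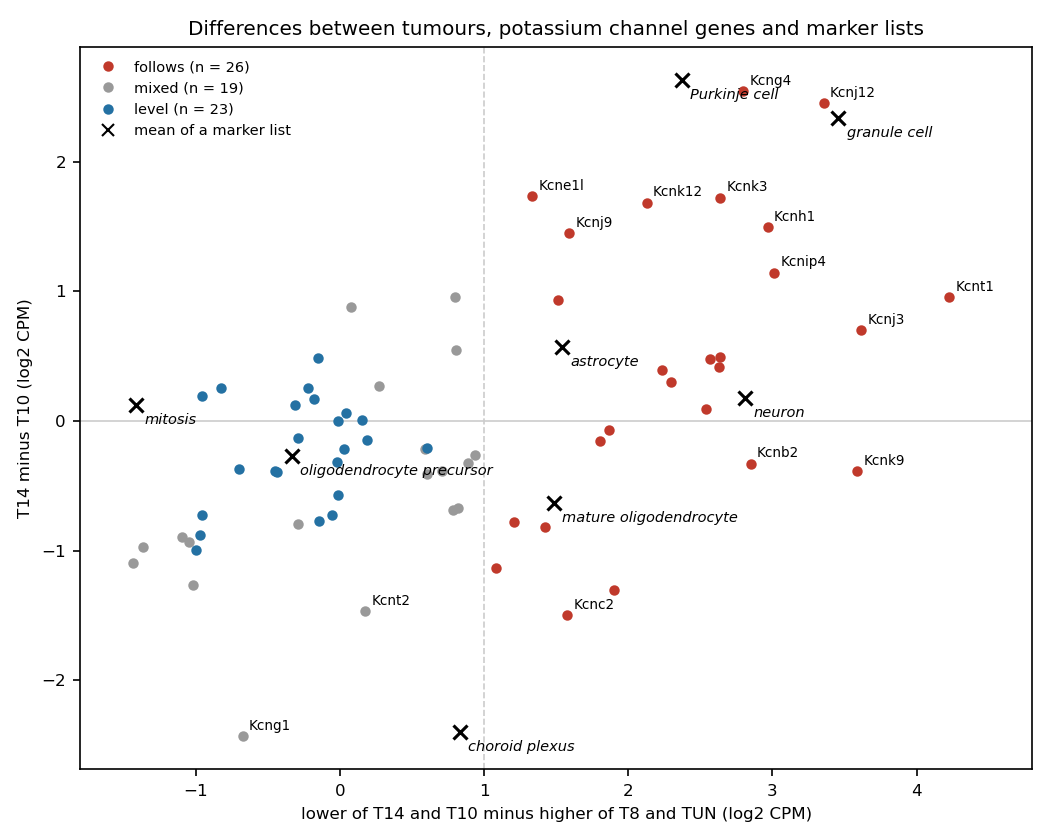
Each point is 1 of 68 of the 72 genes at mean CPM 1 or more. The x axis gives the lower of T14 and T10 minus the higher of T8 and TUN and the y axis T14 minus T10, both in log2 CPM, with crosses for the means of 8 marker lists and a dashed line at 1. Kcng4 and Kcnj12 lie by the granule and Purkinje cell crosses, Kcnt1 lies farthest right at 4.23, and the level genes lie around the oligodendrocyte precursor cross.

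The 21 genes under a mean of 1 CPM came from 7 classes. Beside the 3 at 0, a further 7 stayed under a mean of 0.1 CPM (Kcnk16, Kcne1, Kcnk7, Kcna7, Kcnmb3, Kcng3 and Kcnv2), with at most 4 counts in any library. Kcnh3, Kcnh4 and Kcnh6 of the EAG class stood at means of 0.685, 0.595 and 0.853 CPM, and the mechanosensitive K2P gene Kcnk4 (TRAAK) at 0.713 CPM. Kcnk15 and Kcnj14 had 12 and 36 counts in T10 against at most 1 and 8 in the other libraries, the same library that held most Kcne2 counts. Kcnj5, which encodes GIRK4, the partner of GIRK1 in the heart, had 12, 6, 7 and 5 counts.

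Summed over genes, the 28 following genes, chosen for higher values in T14 and T10, held 327, 206, 40.1 and 31.9 RPKM. The 24 level genes, chosen for a small span, held 517, 527, 493 and 455 RPKM, and the 20 mixed genes 128, 137, 66.1 and 57.9 RPKM. The share of the following genes in all channel RPKM was 33.5%, 23.5%, 6.67% and 5.84%, an order that the choice of these genes fixes.

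Proteins that work with these channels but carry other names were taken from a list of 20 partners. Of the 18 at mean CPM 1 or more, 11 followed (against 9.02% of all genes), 4 were level and 3 were mixed, and 8 of 16 tested were called (against 4.34% of all genes). Hcn2, a pacemaker channel that also passes sodium, followed at 99.2, 134, 42.2 and 27.9 CPM (adjusted p = 0.0419). Cntnap1 (Caspr), a protein of the paranodal junction that separates Kv1 channels from the node of myelinated axons, followed at 129, 101, 14.3 and 12.2 CPM (adjusted p = 2.03e-06). Dpp6, a Kv4 partner, was mixed at 327, 279, 183 and 150.4 CPM, and Adam22 at 188, 176, 92.5 and 105 CPM. The synaptic scaffold gene Dlg4 and the KATP regulator gene Abcc9 were level.

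Of 11 potassium pump and cotransporter genes, 3 followed (against 9.02% of all genes), 6 were level and 2 were mixed, and the goodness of fit called 3 (against 4.34%). Atp1b1, a beta subunit of the sodium pump, followed at 834, 808, 237 and 227 CPM (adjusted p = 0.0338). Atp1b2, the beta subunit known from glia, was level at 226 RPKM on average. The cotransporter gene Slc12a7 was mixed at 6.44, 10.3, 16.3 and 12.5 CPM.

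Other families of membrane channels are given for comparison. Of 31 sodium and calcium channel genes at mean CPM 1 or more, 16 followed (51.6%) and 10 were level. Of 15 GABA-A receptor genes, 8 followed (53.3%) and 4 were level. The difference from the 38.9% of potassium channel genes was not tested.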

How the data were processed

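PolyA RNA of 4 tumours was measured. The authors deposited a table of whole-number read counts per gene with GENCODE vM8 identifiers, and the submitters' processing notes name STAR, featureCounts and mm10, and the table gives the merged exon length of each gene per the file headers. Tool versions, the strand setting and the handling of multiply matching reads are not given in these sources. Exons of 19 of the 93 genes overlap those of another gene, whose reads may be shared or lost.

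Symbols matched 46451 of 46946 identifiers. No column name equals a sample title, and the 4 columns entered as tumours of the single group without replicate numbers, and 0 columns of sample values were left aside. Counts were scaled by TMM (edgeR 4.0.16, R 4.3.3) over genes that passed edgeR's default filter, with library totals of 21664889 to 24369339, and given as CPM or, by exon length, RPKM. Variability was tested with an intercept-only edgeR fit at the trended dispersion. Residual deviance was set against chi-square with 3 degrees of freedom, with Benjamini-Hochberg adjustment over 14266 genes (threshold 0.05). The step was also run on counts simulated at the same trend, with changed genes raised in a single library. That setting differs from genes high in both T14 and T10, so it is no check of the calls made here. DESeq2 1.42.0 dispersion outliers, other scalings, filters, prior counts, limits and marker lists, and leaving out each library, were alternatives.

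The members, classes, marker lists and tests were chosen with earlier results of these data known. Genes named by rule were the 2 with the highest RPKM of each class, up to 4 called genes per class by smallest p, all opposite genes and the 5 level genes with the highest RPKM (40 genes), and of the partner and transport lists the 2 with the highest RPKM of each pattern. Other genes were named after their values were seen. Some genes named by this rule or drawn from these lists are counted but not reported here.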

Additional observations from a re-analysis of the deposited data

Results flagged for a closer look

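Among 52 genes checked for a library far from the other 3 on the log2 CPM scale, 2 were found, and chance alone gives about 1 in 20. Kcnip3 was low in T10, with a gap of 0.862 of its whole range, although that range was 0.257 log2 units (622, 520.5, 607 and 608 CPM in T14, T10, T8 and TUN). Kcnmb4 was high in T14, with a gap of 0.875 of its range (10.9 CPM against 5.9, 5.41 and 5.58), and its exons overlap those of Kcnmb4os1 and Kcnmb4os2.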

How the results depend on the processing

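The count of 18 genes more variable than the trend was 17 to 19 with other scalings and filters. Of all genes tested, 2.82% to 4.92% were called in these settings. The count was 11 to 15 when each library was left out in turn (2.95% to 3.22% of all genes) and 5 as DESeq2 dispersion outliers (0.652%). Kcne1l was lost with both other scalings, Kcne1l and Kcnh7 with the filter at mean CPM 1, and these with Kcnc2 with no filter, while Kcnj12, Kcnj6 and Kcnk9 were gained with both filters and Kcnj13, whose exons overlap those of Gigyf2 (11493 counts in all), with no filter. The count of 28 genes that follow neuron genes was 28 with both other scalings and both other prior counts. Without transmitter genes and with the astrocyte list it was 28 as well. Both lists select the same 4 pairs of libraries, so that outcome was fixed and is no check. The count was 17 with a limit of 2 log2 units (3.81% of all genes) and 38 with 0.5 (15.5%). With the Purkinje cell list, which also separates T14 from T10, it was 8 (1.94% of all genes). Leaving out each library gave 29 to 37 (10.4% to 11.9% of all genes), since fewer pairs of libraries then have to differ. The count of 72 genes at mean CPM 1 or more was 69 to 73 without each library. No paired analysis was possible because the labels give 1 group and the columns carry no replicate number. Genes near the limit of 3 counts in a library, such as Kcnj6, have no reliable fold.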
